A study of Mus musculus with 13 samples.

Results

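Lysosomal genes of injured mouse muscle were followed as a fixed set of 38 that encode the organelle's proteases, other hydrolases, protein inhibitors, membrane proteins and the transcription factors tied to it. They were taken by gene symbol from the deposited expression table, where all 38 were found among 14911 genes. The table came from whole hamstring muscle of female C57BL/6 mice, sampled 4 days after the muscle was injected with cardiotoxin at 0.32 mg/kg, a cobra venom toxin that kills fibres. All mice of both groups carried this injury. The 9 dexamethasone mice then received that synthetic glucocorticoid by daily intraperitoneal injection at 10 mg/kg, and the 4 saline mice received saline by the same route. There was 1 polyadenylated RNA library per mouse. The submitters left out another saline mouse that had formed bone in the injured muscle, while all dexamethasone mice formed bone. The saline libraries were therefore selected on bone, and the drug and bone formation cannot be told apart in these data.

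Lysosomes are acid compartments in which hydrolases break down proteins, sugars and lipids that arrive by endocytosis, phagocytosis and autophagy. Cathepsins are their main proteases, cystatins hold stray cathepsins in check outside the organelle, and heavily glycosylated LAMP proteins line its membrane. In muscle that has been destroyed by a toxin, macrophages carry much of this machinery as they clear dead fibres, and fibres hold their own. The related transcription factors TFEB, TFE3 and MITF bind a sequence called the CLEAR element in promoters of many lysosomal genes, whose core contains TCACGTG.

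Promoter windows are shown for the 4 members that both held this core and were higher under dexamethasone. Also shown is Mcoln1, which held it and was not called. Ctsa, Gaa, Glb1 and Naglu likewise held it, were not called and are not shown, so the windows were chosen by call. Sequences are from RefSeq on GRCm38.p6, read on the strand of the gene, with each TCACGTG or its reverse complement in capitals and 15 bases around it, none past the transcription start.
Lamp1, chr8:13159084-13159160, plus strand: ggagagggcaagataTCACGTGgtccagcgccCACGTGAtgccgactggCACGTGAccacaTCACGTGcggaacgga
Gla, chrX:134601178-134601248, minus strand: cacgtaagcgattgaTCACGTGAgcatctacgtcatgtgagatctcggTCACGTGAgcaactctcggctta
Lgmn, chr12:102439121-102439157, minus strand: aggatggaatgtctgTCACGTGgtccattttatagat
Ctsd, chr7:142387904-142387941, minus strand: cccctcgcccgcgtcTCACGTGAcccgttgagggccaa
Mcoln1, chr8:3500432-3500495, plus strand: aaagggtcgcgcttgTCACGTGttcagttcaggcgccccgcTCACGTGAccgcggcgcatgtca
The Lamp1 window held 4 matches within the last 77 bases before its start, and the Gla and Mcoln1 windows held 2 each. Lgmn held 1 match, and Ctsd held 1 in the window shown with another farther upstream.

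Expression was read as log2 CPM, the log2 of counts per 1000000 reads, and groups were compared with limma over all 14911 genes with Benjamini-Hochberg adjustment at 0.05. Of the 38 members, 15 (39.5%) were higher under dexamethasone, 4 (10.5%) were lower and 19 were not called. Among all genes 48.1% were called, 25.2% higher and 22.9% lower, so the members' share of higher calls lay above the background and their share of lower calls below it. Among the 3763 genes at least as abundant as the members' lower quartile, 31.0% were higher and 26.2% lower. With the macrophage marker mean as a covariate, 4 members were called higher and 9 lower, where 2253 and 2180 of all genes were. The changes were small. Log2 fold changes ran from -0.42 to 0.92 with a median of 0.06, against 0.01 over all genes. The median was 0.13 without saline library 5, 0.03 with each library centred on its median and 0.001 with the macrophage marker mean as a covariate. In all, 0 members differed by 2-fold or more, where 2.5% of all genes were called and at least 2-fold higher and 2.69% at least 2-fold lower. In 5 members every dexamethasone library lay above every saline library and in 1 member every one lay below, where 12.9% of all genes did so in each direction (25.8% in either), so the members' share above was close to the background. Those 5 were Ctsl, Lgmn, Lamp2, Cstb and Lamp1, and the 1 below was Ctsf. In whole tissue, fewer cells of a type and less RNA per cell cannot be told apart.

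**Figure D1:**
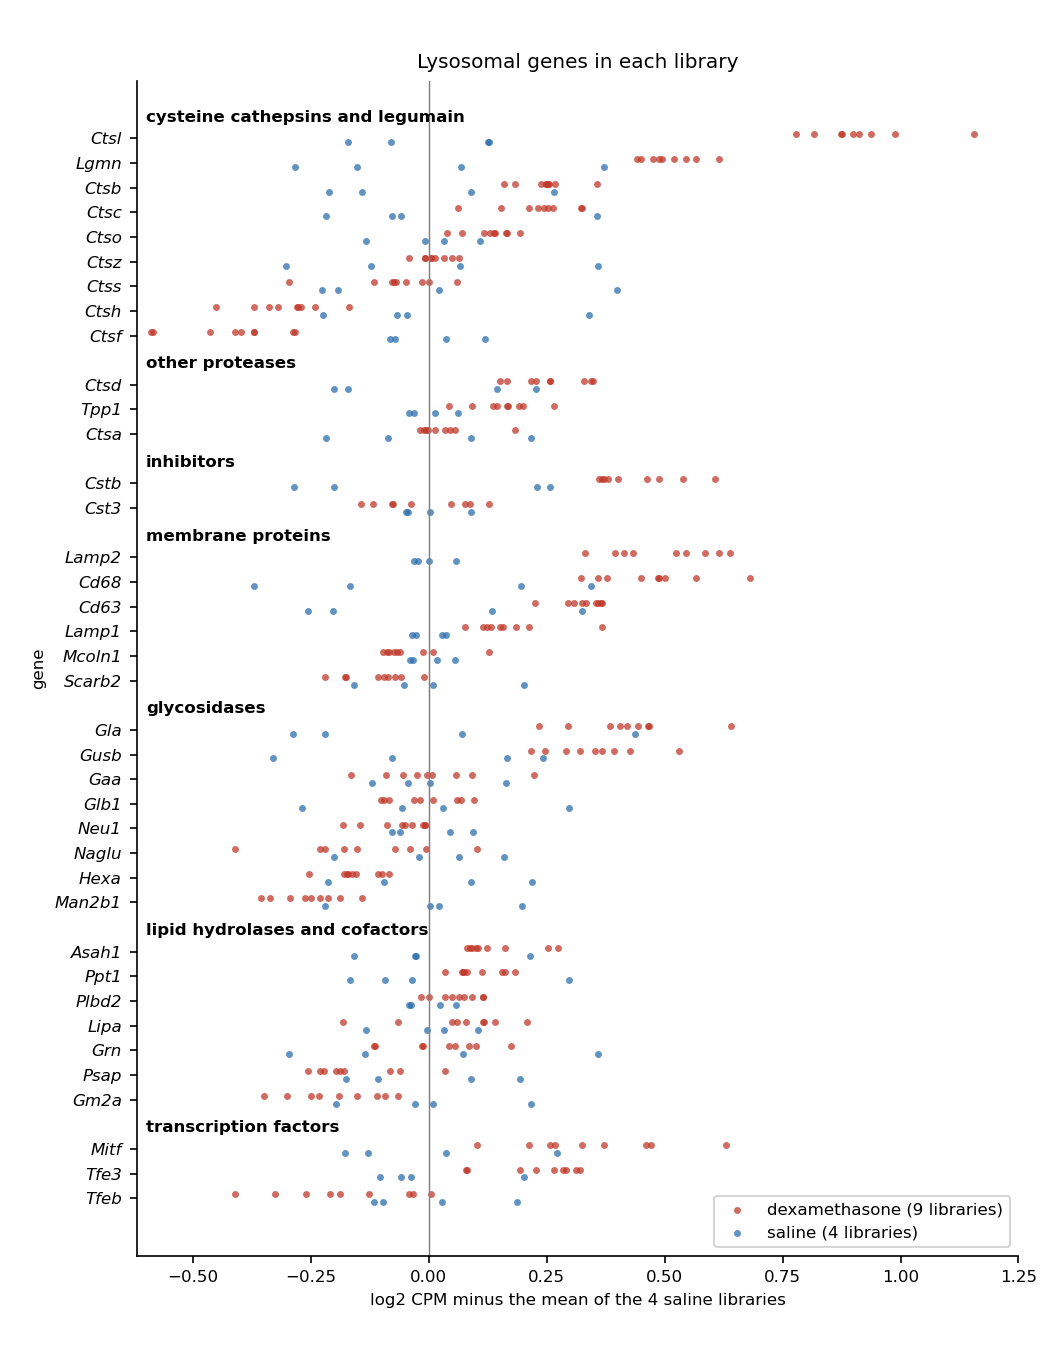
Each point is 1 library: the log2 CPM of a member minus the mean of the 4 saline libraries, with genes down the page by role and dexamethasone libraries drawn above saline libraries in each row. The 9 dexamethasone points of Ctsl stand clear on the right, those of Ctsf stand clear on the left, and the 4 saline points of many genes are spread more widely than the 9 dexamethasone points.

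Among the 9 cysteine proteases, cathepsin L and legumain were higher without overlap, cathepsins B and C were slightly higher, and cathepsins F and H were lower. Ctsl (Entrez 13039, mm10 chromosome 13, 64359337 to 64370890, minus strand) encodes cathepsin L, a broad endopeptidase of the lysosome. Its level was 8.80, 8.92 and 9.18 log2 CPM as the lowest, median and highest of the 9 dexamethasone libraries, against 7.85, 7.94, 8.15 and 8.15 in saline libraries 1, 2, 3 and 5. The groups did not overlap, and the log2 fold change was 0.92 ± 0.07 (SE; limma adjusted p = 2.25e-07), the largest difference among the members. Lgmn (Entrez 19141, chromosome 12, 102394084 to 102439813, minus strand) encodes legumain, an asparagine-specific protease that processes several cathepsins. It had 8.92, 8.97 and 9.10 log2 CPM across dexamethasone libraries, against 8.20, 8.33, 8.55 and 8.85 in the saline libraries in the same order. Every dexamethasone library was above the highest saline library, number 5, and the log2 fold change was 0.51 ± 0.09 (SE; limma adjusted p = 0.000213).

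Ctsf, for cathepsin F, and Ctsh, for the aminopeptidase cathepsin H, went the other way. Ctsf (Entrez 56464, chromosome 19, 4855130 to 4860918, plus strand) had 4.48, 4.67 and 4.78 log2 CPM across dexamethasone libraries, against 4.98, 5.18, 5.10 and 4.99 in saline libraries 1, 2, 3 and 5. The groups did not overlap, with a log2 fold change of -0.42 ± 0.07 (SE; limma adjusted p = 9.36e-05). Ctsh had 6.63, 6.80 and 6.91 log2 CPM across dexamethasone libraries, against 6.85, 7.03, 7.01 and 7.42 in saline libraries. In 8 of 9 dexamethasone libraries it was below every saline library, and its log2 fold change was -0.30 ± 0.08 (SE; limma adjusted p = 0.00484). Saline library 5 carried much of that value, since without it the log2 fold change was -0.19, still past the threshold.

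Ctsb and Ctsc were higher by less. The log2 fold change was 0.25 ± 0.08 (SE) for Ctsb, encoding cathepsin B, with a limma adjusted p of 0.0254, and 0.23 ± 0.08 (SE) for Ctsc, encoding the dipeptidyl peptidase cathepsin C, with 0.0272. Both calls were lost when any 1 of several saline libraries was left out. Without saline library 1 or 2, Ctsb had a log2 fold change of 0.17 or 0.20, with limma adjusted p of 0.101 and 0.104. Ctsc lost its call without saline library 1, 2 or 3, at log2 fold changes of 0.16, 0.21 and 0.20 (limma adjusted p of 0.126, 0.0797 and 0.0846). Its log2 fold change was 0.35 without saline library 5. The remaining cysteine cathepsins were not called. Ctss, a protease of antigen-presenting cells that trims the class II invariant chain, had a log2 fold change of -0.07 ± 0.09 (SE), and Ctsz, a carboxypeptidase, had 0.01 ± 0.08. Ctso, encoding cathepsin O, had 0.13 ± 0.05 (SE) and a limma adjusted p of 0.0544, which was 0.0425 without dexamethasone library 1 and 0.0286 without saline library 2.

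The other proteases showed small differences. Tpp1, a tripeptidyl peptidase, had 6.70, 6.83 and 6.93 log2 CPM across dexamethasone libraries, against 6.62, 6.63, 6.67 and 6.72 in saline libraries 1, 2, 3 and 5. In 8 of 9 dexamethasone libraries it was above every saline library, with a log2 fold change of 0.16 ± 0.04 (SE; limma adjusted p = 0.00817). Ctsd, the main aspartic protease of lysosomes, had 10.45, 10.56 and 10.65 log2 CPM across dexamethasone libraries, against 10.13, 10.10, 10.44 and 10.53 in saline libraries. The groups overlapped, and the log2 fold change was 0.25 ± 0.08 (SE; limma adjusted p = 0.0199). That call was lost without saline library 1 or 2, at limma adjusted p of 0.0759 and 0.101. Ctsa, a carboxypeptidase that also shields β-galactosidase and neuraminidase, was not called, with 7.73, 7.76 and 7.94 log2 CPM across dexamethasone libraries against 7.53, 7.67, 7.84 and 7.97 in saline libraries. Its dexamethasone libraries all lay inside the saline range.

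The cystatin-type inhibitors differed in outcome. Cstb (Entrez 13014, chromosome 10, 78425669 to 78427622, plus strand) encodes cystatin B, an inhibitor of cathepsins inside the cell. It had 5.43, 5.47 and 5.68 log2 CPM across dexamethasone libraries, against 4.79, 4.87, 5.33 and 5.30 in saline libraries 1, 2, 3 and 5. The groups did not overlap, with a log2 fold change of 0.44 ± 0.09 (SE; limma adjusted p = 0.000842). Cst3, the secreted inhibitor cystatin C, had 7.46, 7.57 and 7.73 log2 CPM across dexamethasone libraries, against 7.56, 7.69, 7.56 and 7.61 in saline libraries. It was not called, with a log2 fold change of -0.01 ± 0.06 (SE; limma adjusted p = 0.868), and the difference between these inhibitors was not tested.

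Of the 6 membrane proteins 4 were higher (66.7%) and 0 lower, against 25.2% and 22.9% of all genes. Lamp2 (Entrez 16784, chromosome X, 38401357 to 38456454, minus strand) encodes a LAMP glycoprotein needed for autophagosomes to mature. It had 7.39, 7.58 and 7.70 log2 CPM across dexamethasone libraries, against 7.04, 7.03, 7.06 and 7.12 in saline libraries 1, 2, 3 and 5. The saline values were tight and the groups did not overlap, with a log2 fold change of 0.50 ± 0.06 (SE; limma adjusted p = 6.66e-06). Lamp1 (Entrez 16783, chromosome 8, 13159161 to 13175338, plus strand), the other main LAMP glycoprotein, had 9.43, 9.50 and 9.72 log2 CPM across dexamethasone libraries, against 9.32, 9.33, 9.38 and 9.39 in saline libraries. It did not overlap either, by a narrow margin, with a log2 fold change of 0.17 ± 0.06 (SE; limma adjusted p = 0.0221). Without saline library 1 or 2 the limma adjusted p was 0.0506 and 0.0624.

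Cd68 and Cd63 complete the membrane proteins that were higher. Cd68, a LAMP relative found mainly in macrophages, had 7.37, 7.54 and 7.73 log2 CPM across dexamethasone libraries, against 6.68, 6.88, 7.25 and 7.40 in saline libraries. It was above every saline library in 8 of 9 dexamethasone libraries, with a log2 fold change of 0.47 ± 0.10 (SE; limma adjusted p = 0.00152). Cd63, a tetraspanin of late endosomes and lysosomes, had 7.85, 7.96 and 8.0 log2 CPM across dexamethasone libraries, against 7.37, 7.43, 7.76 and 7.95 in saline libraries. The groups overlapped at saline library 5, and the log2 fold change was 0.32 ± 0.08 (SE; limma adjusted p = 0.00413). Mcoln1, a calcium channel of the lysosomal membrane, and Scarb2, the receptor that carries glucocerebrosidase to lysosomes, were not called at log2 fold changes of -0.04 ± 0.05 and -0.11 ± 0.06 (SE). Scarb2 was called lower without saline library 5, at -0.16 with a limma adjusted p of 0.0283, but stood at -0.04 without saline library 1 (limma adjusted p = 0.515). With the mean of the macrophage or of the fibre markers described further on as a covariate, its log2 fold change was 0.05 or 0.08 and not called.

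Of the 8 glycosidases, which split sugar chains, 2 were higher (25%), 1 was lower (12.5%) and 5 were not called. Among all genes the shares were 25.2% higher and 22.9% lower. Gusb, β-glucuronidase, had 6.57, 6.71 and 6.89 log2 CPM across dexamethasone libraries, against 6.03, 6.28, 6.52 and 6.60 in saline libraries 1, 2, 3 and 5. It was above every saline library in 8 of 9 dexamethasone libraries, with a log2 fold change of 0.35 ± 0.09 (SE; limma adjusted p = 0.00325). Gla, α-galactosidase A, whose promoter window is printed above, had 3.86, 4.05 and 4.27 log2 CPM across dexamethasone libraries, against 3.34, 3.41, 3.70 and 4.07 in saline libraries. It overlapped at saline library 5, and its log2 fold change was 0.42 ± 0.11 (SE; limma adjusted p = 0.00489). Man2b1, the lysosomal α-mannosidase, had 6.78, 6.89 and 7.0 log2 CPM across dexamethasone libraries, against 6.92, 7.14, 7.16 and 7.34 in saline libraries. It was below every saline library in 6 of 9 dexamethasone libraries, with a log2 fold change of -0.25 ± 0.06 (SE; limma adjusted p = 0.00343).

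The other 5 glycosidases were not called. Gaa, which degrades glycogen, had a log2 fold change of 0.00 ± 0.07 (SE), and Glb1, β-galactosidase, had -0.01 ± 0.08. Neu1, a sialidase, had -0.07 ± 0.05 (SE) and Naglu, an enzyme of heparan sulfate breakdown, -0.13 ± 0.08. Hexa, a subunit of β-hexosaminidase, had -0.15 ± 0.06 (SE) with a limma adjusted p of 0.056. It was called lower without saline library 1 or 2, at limma adjusted p of 0.00565 and 0.0462, while without saline library 5 its log2 fold change was -0.08 (limma adjusted p = 0.255).

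The 7 genes grouped as lipid hydrolases and cofactors, with Grn placed among them, held 0 higher calls and 1 lower call (14.3%). Among all genes 25.2% were higher and 22.9% lower. Gm2a, an activator protein that presents a ganglioside to β-hexosaminidase, had 6.40, 6.56 and 6.68 log2 CPM across dexamethasone libraries, against 6.55, 6.76, 6.72 and 6.97 in saline libraries 1, 2, 3 and 5. Its log2 fold change was -0.19 ± 0.07 (SE; limma adjusted p = 0.0281), but it lost the call without saline library 2 or 5, at -0.19 and -0.12 with limma adjusted p of 0.0632 and 0.132. Psap, the precursor of the saposin cofactors, had 10.70, 10.77 and 10.99 log2 CPM across dexamethasone libraries, against 10.85, 10.78, 11.04 and 11.15 in saline libraries. Its groups overlapped and it was not called (limma adjusted p = 0.145). Asah1, acid ceramidase, had 6.27, 6.29 and 6.46 log2 CPM across dexamethasone libraries, against 6.03, 6.16, 6.16 and 6.40 in saline libraries, with a limma adjusted p of 0.0647. Asah1 and Ppt1, which removes palmitate from proteins, were called higher without saline library 5, at log2 fold changes of 0.21 and 0.20. Plbd2, a phospholipase B-like protein, Lipa, the acid lipase of cholesterol esters, and Grn, the precursor of the granulins, had log2 fold changes of 0.06, 0.06 and 0.02 and were not called.

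Of the 3 transcription factors 2 were higher (66.7%) and 1 was not called, where 25.2% of all genes were higher. Mitf had 3.91, 4.13 and 4.44 log2 CPM across dexamethasone libraries, against 4.08, 3.68, 3.84 and 3.63 in saline libraries 1, 2, 3 and 5. It overlapped at saline library 1, and its log2 fold change was 0.34 ± 0.10 (SE; limma adjusted p = 0.00781). Tfe3 had 5.34, 5.53 and 5.58 log2 CPM across dexamethasone libraries, against 5.16, 5.20, 5.22 and 5.46 in saline libraries. Above every saline library in 6 of 9 dexamethasone libraries, it had a log2 fold change of 0.23 ± 0.06 (SE; limma adjusted p = 0.00753). Tfe3 was not called with the macrophage or fibre marker mean as a covariate, at log2 fold changes of 0.03 and 0.02 (limma adjusted p of 0.728 and 0.877). Tfeb had 6.05, 6.28 and 6.47 log2 CPM across dexamethasone libraries, against 6.65, 6.35, 6.49 and 6.37 in saline libraries. It was not called, at a log2 fold change of -0.18 ± 0.08 (SE; limma adjusted p = 0.0698), and passed the threshold as lower without dexamethasone library 8 (limma adjusted p = 0.0409). Without saline library 1 its log2 fold change was -0.12 (limma adjusted p = 0.256), and with the macrophage or fibre marker mean as a covariate it was -0.01 or 0.17, not called in either. These are transcript levels; the activity of these factors is set largely by their entry into the nucleus, which was not measured.

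The CLEAR core was then counted in the promoters. A RefSeq entry, from 250 bases before to 50 after a transcription start, was found for 33 of 38 members. TCACGTG on either strand was present in 9 of these 33 genes (27.3%), in 6.60% of the 11746 measured genes with an entry and in 4.29% of all 27025 genes in the table. The shorter E-box CACGTG, which lies inside it, was present in 11 of 33 members (33.3%), 11.3% of measured genes and 8.09% of all genes. Of the 9 members with TCACGTG, 4 were higher (Ctsd, Gla, Lamp1 and Lgmn), 0 were lower, and Ctsa, Gaa, Glb1, Mcoln1 and Naglu were not called. Of the 24 without it, 9 were higher and 3 lower. The median log2 fold change was 0.03 with the core and 0.04 without it. Among all measured genes 29.4% of those with the core and 24.6% of those without it were called higher. Ctsl and Lamp2, the members of smallest adjusted p, held no such letters in this window. A match is a description of the letters, and its use as a binding site was not tested.

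Levels between genes were compared as CPM per kilobase of exon. The length was that of all annotated exons of a gene merged, such as 6489 bases for Ctsl and 1358 for Ctss. The order between genes therefore depends on the annotation. Psap was the most abundant member in both groups, at 650 CPM per kilobase under dexamethasone and 723 under saline. Ctsd was next in both, at 639 under dexamethasone and 536 under saline. Ctsb stood at 315 under dexamethasone and 265 under saline, Lamp1 at 275 and 244, and Ctss at 271 and 285, so that Ctsb was the third member in dexamethasone libraries and Ctss in saline libraries. Ctsl stood at 75.7 under dexamethasone and 40.1 under saline, and was 13th of 38 in dexamethasone libraries and 16th in saline libraries. Mitf was the least abundant member in both, at 2.86 under dexamethasone and 2.26 under saline. Every member had at least 255 reads in every library, and the highest value was 73950 reads. The order of the members in the plot of levels per kilobase was thus nearly the same in both groups, over a range far wider than any difference between groups.

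**Figure D2:**
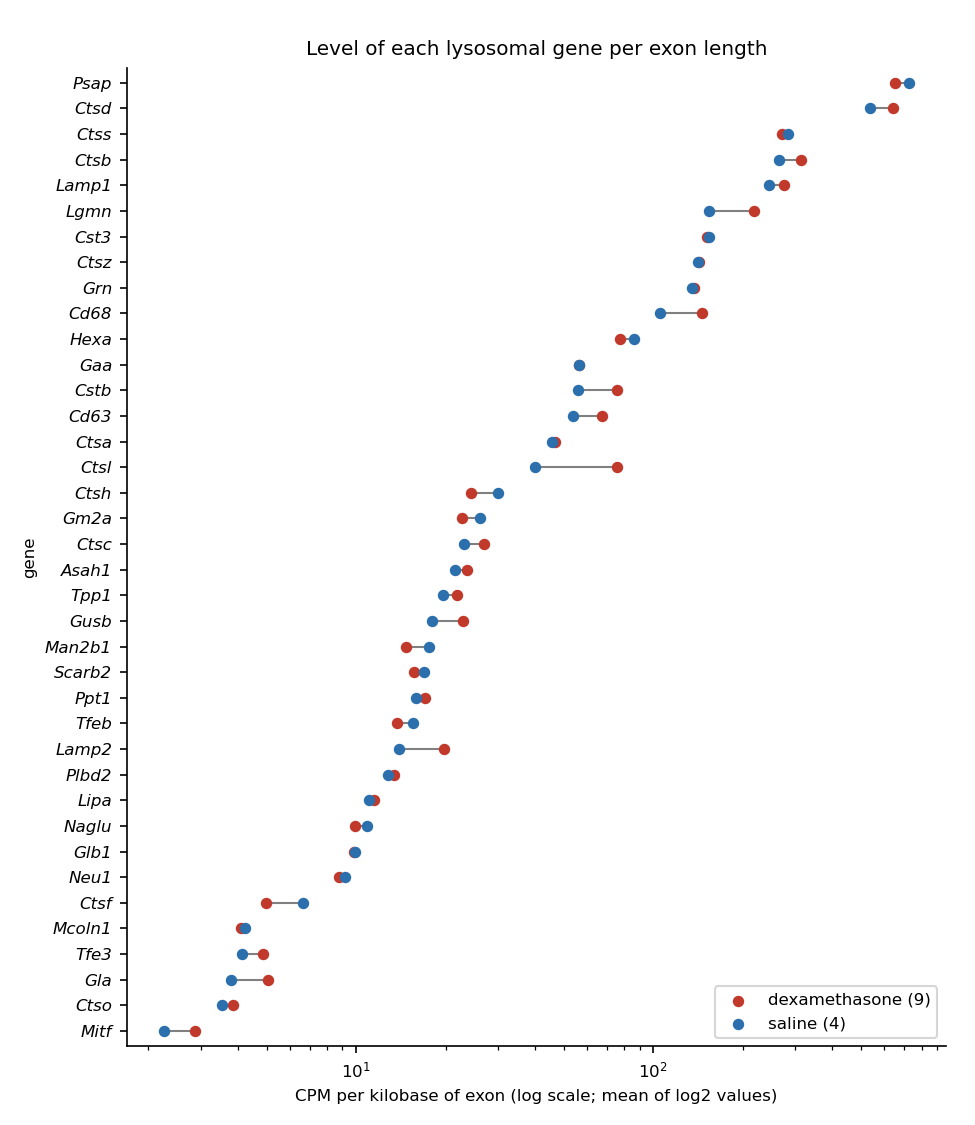
Mean level of each member in CPM per kilobase of exon on a log axis, for the 9 dexamethasone and the 4 saline libraries, ordered by the saline level. Psap and Ctsd lie at the upper end and Mitf at the lower end in both groups, and the longest line joining a gene's groups is that of Ctsl.

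The members also varied between mice of the same group, chiefly among saline mice. Their summed level was 10432 to 11553 CPM in dexamethasone libraries (median 10934), against 8971, 9149, 10467 and 11544 CPM in saline libraries 1, 2, 3 and 5. Saline library 5 was the highest saline library for 28 of 38 members and saline library 1 the lowest for 27. The median member deviated from its group mean by -0.03 to 0.04 in the 9 dexamethasone libraries, against 0.21 in saline library 5 and -0.17 in saline library 1. Macrophage markers ran in the same order. The mean of 18 of them was 6.35 ± 0.06 log2 CPM in dexamethasone libraries (SD, n = 9; 6.27 to 6.44), against 5.85, 6.01, 6.03 and 6.39 in saline libraries 1, 2, 3 and 5. Their summed level was 2759 to 3710 CPM in dexamethasone libraries and 2282 to 3326 CPM in saline libraries, and each of the 18 was detected in every library. Markers of mature muscle fibres were abundant in every library, their 14 genes taking 7.56% to 11.4% of CPM under dexamethasone and 11.97% to 17.7% under saline. Their mean was 11.82 ± 0.18 log2 CPM in dexamethasone libraries (SD, n = 9) and 12.32 ± 0.21 in saline libraries (SD, n = 4), with no overlap, and within saline it was highest in library 1 and lowest in library 5.

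**Figure D3:**
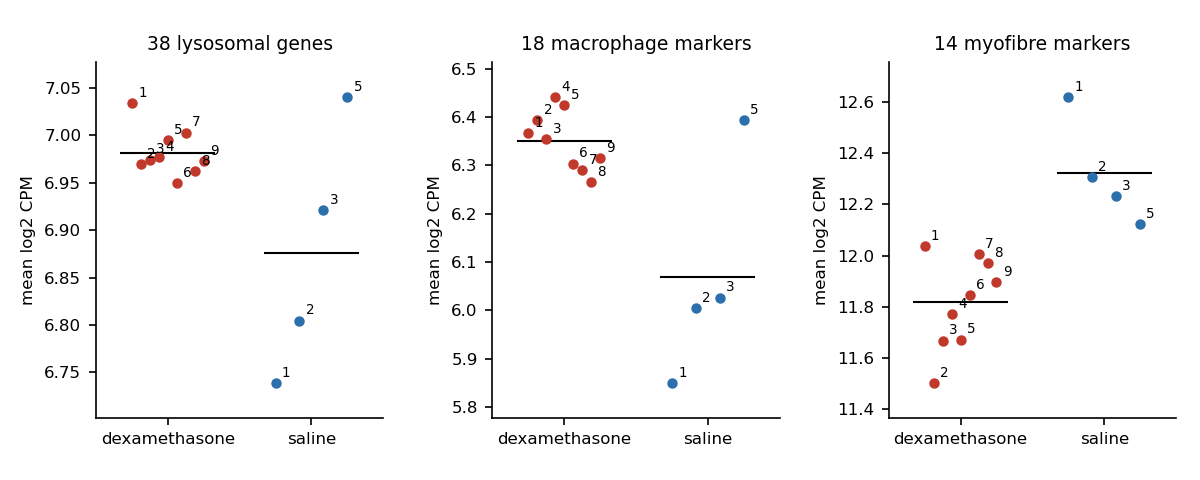
Mean log2 CPM of the 38 lysosomal genes, of 18 macrophage markers and of 14 mature fibre markers in each numbered library, with a line at each group mean. Saline library 5 is the highest and saline library 1 the lowest saline library in the lysosomal and macrophage panels, and their order is turned round in the fibre panel.

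Of the 18 macrophage genes 7 were higher (38.9%) and 2 lower (11.1%), against 25.2% and 22.9% of all genes. Their median log2 fold change was 0.04 and the list mean was higher by 0.28. The number of lower calls was 4 without saline library 1 and 1 or 2 with any other single library left out. The scavenger receptors Msr1, Mrc1 and Cd163 were 3.18-, 2.50- and 2.77-fold higher, while the complement genes C1qa, C1qb and C1qc had log2 fold changes of 0.00, 0.01 and -0.01 and were not called. Of the 10 osteoclast markers 1 was higher (10%) and 2 lower (20%), to be read against the same shares of all genes. Ctsk, the osteoclast collagenase of the cathepsin family, was 1.45-fold lower (limma adjusted p = 0.00175). The listed genes Calcr, Dcstamp, Ocstamp and Oscar had 4 to 45, 7 to 32, 14 to 38 and 3 to 21 reads per library. Calcr was the other lower call. All 12 lymphocyte markers and 7 of 10 dendritic cell markers were lower, where 22.9% of all genes were. For neutrophil markers the sum was 28.2 to 67.2 CPM in dexamethasone libraries and 28.3 to 34.7 CPM in 3 saline libraries, but 414 CPM in saline library 3.

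When the macrophage marker mean was added to the model as a covariate, 4 members were called higher and 9 lower. Of all 14911 genes 2253 were higher and 2180 lower in that fit. The members' share of higher calls there lay below the background, on only 4 calls, and their share of lower calls above it, on 9. In the fit on group alone the order was the other way round. The difference between the fits was not tested. Ctsl, Lamp2, Lgmn and Mitf were still higher, at log2 fold changes of 0.76 ± 0.09, 0.40 ± 0.08, 0.21 ± 0.07 and 0.54 ± 0.13 (SE; limma adjusted p of 5.56e-05, 0.00159, 0.0426 and 0.00527). The other 11 members that had been higher were no longer called. These were Cd63, Cd68, Cstb, Ctsb, Ctsc, Ctsd, Gla, Gusb, Lamp1, Tfe3 and Tpp1. Ctsf, Ctsh, Man2b1 and Gm2a were still lower, and Ctss, Ctsz, Glb1, Grn and Hexa were called lower as well, at log2 fold changes of -0.26 to -0.33. With the fibre marker mean as covariate 3 were higher (Ctsl, Lamp2 and Mitf) and 3 lower (Ctsh, Man2b1 and Gm2a). Lgmn and Ctsf were among those not called there, at log2 fold changes of 0.24 and -0.30 (limma adjusted p of 0.16 and 0.0518). Of all genes 1397 were higher and 1270 lower in that fit. Both covariates themselves differed between the groups, the macrophage mean by 0.28 and the fibre mean by -0.50 on the log2 scale, so part of the group difference enters with them. In the macrophage mean, 3 of the 18 markers (Msr1, Mrc1 and Cd163) were called at least 2-fold higher and 0 at least 2-fold lower. The median marker differed by 0.04, so the mean rests much on these 3. The part that cell numbers had in the members' changes was not tested further.

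**Figure D4:**
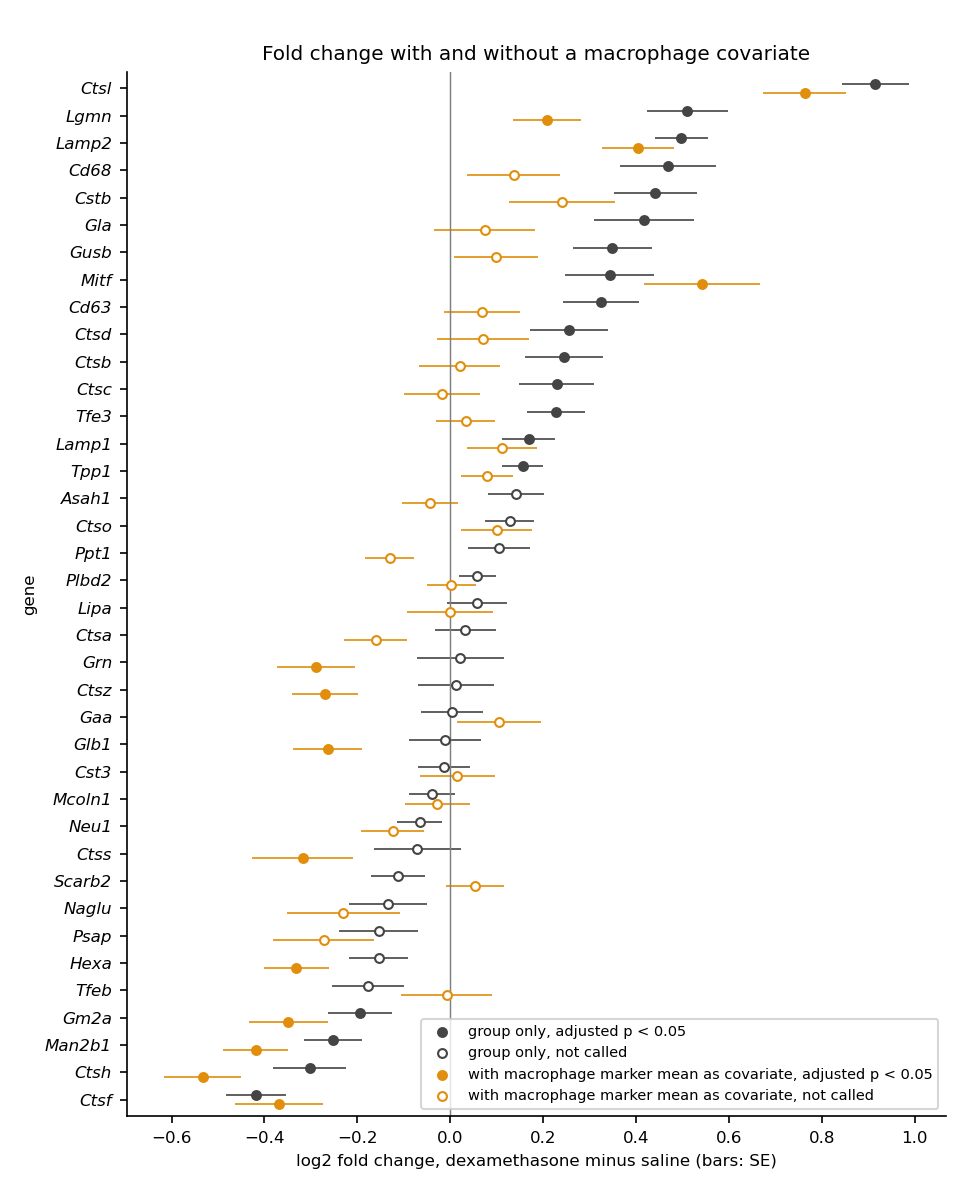
Log2 fold change of each member, dexamethasone minus saline, with SE bars, from the model of group alone (dark) and with the macrophage marker mean added (orange), filled where the limma adjusted p was under 0.05. With the covariate the points of Ctsl and Lamp2 stay well to the right of 0, Mitf moves right, and those of most other members move left.

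Further genes of the same organelle were counted from lists outside the 38, to be read against 25.2% higher and 22.9% lower among all genes. Of 18 subunits of the vacuolar ATPase, the proton pump that acidifies lysosomes, 8 were higher (44.4%) and 4 lower (22.2%). The catalytic subunit Atp6v1a was 1.34-fold higher and the regulatory subunit Atp6v1h 1.37-fold higher (limma adjusted p of 3.32e-05 and 5.41e-05). Atp6v1f, Atp6v1g1 and Atp6v1e1, which encode other subunits of the same cytosolic sector, were 1.24-, 1.22- and 1.12-fold lower (limma adjusted p of 6.78e-05, 0.000864 and 0.00692). In each of these 5 genes, which were named for their small adjusted p, the groups did not overlap, where 25.8% of all genes did not. Atp6v1g1 and Atp6v1e1 were not called with the macrophage covariate, at log2 fold changes of -0.20 and -0.17 (limma adjusted p of 0.0687 and 0.06), nor with the fibre covariate, at -0.06 and -0.08.

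Of 25 other lysosomal hydrolases 6 were higher and 6 lower, a share of calls of 48.0%. Idua, which acts on heparan and dermatan sulfate, and Smpd1, acid sphingomyelinase, were 1.30- and 1.31-fold lower (limma adjusted p of 1.83e-05 and 3.02e-05). Hgsnat, an acetyltransferase of heparan sulfate breakdown, was 1.26-fold higher (limma adjusted p = 0.000138). Of 22 genes of the membrane and of enzyme sorting, 8 were higher (36.4%) and 2 lower (9.09%), against 25.2% and 22.9% of all genes. Gnptab, which builds the mannose 6-phosphate tag on new hydrolases, was higher by 0.40 on the log2 scale, Litaf, an endosomal membrane protein, by 0.59 and the sialomucin Cd164 by 0.44 (limma adjusted p of 9.06e-06, 2.86e-05 and 6.12e-05). Cd164 was not called with the fibre covariate, at 0.21 (limma adjusted p = 0.0678). The 2 lower ones were the sorting receptor Sort1 (1.16-fold, limma adjusted p = 0.013) and the membrane protein Laptm4b (1.10-fold, limma adjusted p = 0.0246). Without saline library 2 neither was called, at log2 fold changes of -0.16 for Sort1 and -0.13 for Laptm4b. Sort1 was also not called without saline library 1 (-0.18), nor Laptm4b without saline library 5 (-0.12). With all libraries the values were -0.22 and -0.13. Neither was called with the macrophage or the fibre covariate. The number of lower calls in this list was 5 without saline library 1.

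Of 25 autophagy genes 5 were higher and 1 lower, so that 24.0% were called against 48.1% of all genes. Map1lc3a, a coat protein of autophagosomes, was 1.35-fold lower (limma adjusted p = 0.000868). Atg7, an enzyme of its lipid conjugation, was 1.19-fold higher and Bnip3, a mitophagy receptor, 1.27-fold higher (limma adjusted p of 0.00144 and 0.00354). Map1lc3a and Atg7 were not called with the fibre covariate, at log2 fold changes of -0.39 and 0.21 (limma adjusted p of 0.0781 and 0.111). Without saline library 3 the list held 3 higher calls, and without saline library 1 it held 2 lower ones. Of 24 genes of TFEB regulation and nutrient sensing 4 were higher and 6 lower. Ppargc1a, a coactivator of mitochondrial biogenesis, was 2.01-fold lower and Lamtor4, of the complex that anchors mTORC1 to lysosomes, 1.30-fold lower (limma adjusted p of 8.82e-06 and 0.000152). Fnip2, a folliculin partner, was 1.28-fold higher, Tfec, the remaining relative of TFEB, 1.77-fold and the Rag GTPase Rragc 1.15-fold (limma adjusted p of 0.000557, 0.00387 and 0.00726). Tfec and Rragc were not called with the macrophage covariate, at log2 fold changes of 0.11 and 0.05 (limma adjusted p of 0.688 and 0.584), nor with the fibre covariate, at 0.29 and 0.03. Lamtor4 and Fnip2 were not called with the fibre covariate, at -0.28 and 0.22 (limma adjusted p of 0.0604 and 0.158).

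Of 14 further protease inhibitors listed 10 were measured, with 4 higher and 1 lower. Timp1, an inhibitor of metalloproteinases, was 3.35-fold higher, Serpinb1a, an inhibitor of neutrophil serine proteases, 1.72-fold and Slpi, a secreted leukocyte protease inhibitor, 3.70-fold (limma adjusted p of 5.92e-07, 1.97e-05 and 0.000592). The 1 lower was Cst7, a cystatin of immune cells, at 2.55-fold (limma adjusted p = 0.00114), on a mean of -1.28 log2 CPM under dexamethasone and 0.07 under saline. The 4 that were higher included changes larger than any of the 38 members. In Timp1, Serpinb1a and Slpi, named for their small adjusted p, the groups did not overlap. Slpi had as few as 18 reads in a library. It was not called with the macrophage or the fibre covariate, at log2 fold changes of 1.41 and 1.015 (limma adjusted p of 0.0567 and 0.225).

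**Figure D5:**
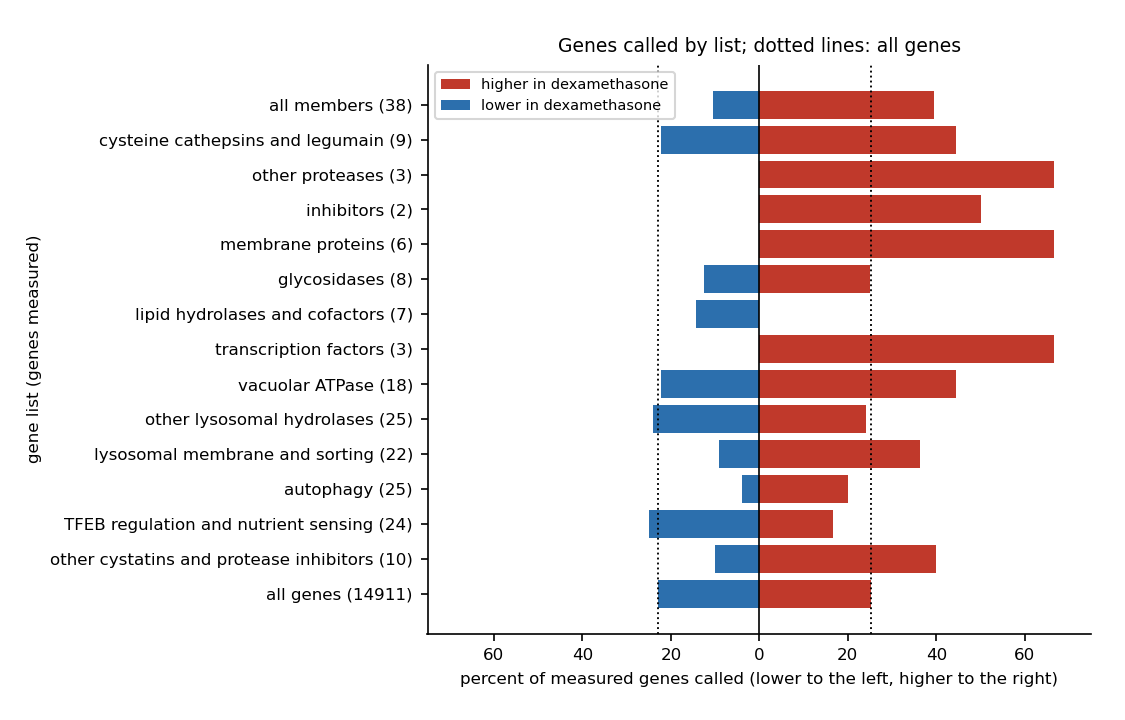
Percent of the measured genes of each list called higher (right) and lower (left) under dexamethasone at a limma adjusted p under 0.05, with the number measured in brackets and dotted lines at the 25.2% and 22.9% of all genes. Bars of lists with few genes rest on 1 or 2 calls.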

How the data were processed

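Whole injured hamstring muscle of 13 mice (9 dexamethasone, 4 saline) was sequenced as stranded polyadenylated RNA, per the labels' protocols. The submitters' processing notes name featureCounts 2.0.1, limma 3.50.1 and the build mm10. Which aligner, strand setting or low-count filter was used is not stated in the labels, so overlapping antisense genes cannot be told apart. The authors deposited log2 CPM values for 14911 genes, normalised without the excluded saline mouse, and a second table with it (14970 genes), whose 1 column for that mouse was not used. The authors' deposited table of log2 fold changes and p-values called the same 19 members. Read counts plus 0.5, divided by an effective library size and put on the log2 scale, gave the values, so whole reads came out in 100% of values (within 0.01), 28021111 to 34942266 per dexamethasone library and 25531487 to 32537345 per saline library.

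From these values the groups were compared, two-sided, in limma 3.58.1 under R 4.3.3 (lmFit, then eBayes with trend), with Benjamini-Hochberg adjustment over all genes at 0.05. Each library came from a separate mouse. Lengths and coordinates came from GENCODE M21 (GRCm38, the mm10 assembly). The steps were tested on simulated data. Members and lists were chosen with earlier results of these data known.

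Values by library were given for the 12 called members of largest fold change, the 3 transcription factors and up to 3 per role of smallest adjusted p; Lamp1 was added after its values were seen. Related genes were up to 3 called per list of smallest adjusted p with a mean of at least 0 log2 CPM, and up to 2 in the direction opposite to most. C1qa, C1qb, C1qc and Cst7 were named outside that rule after their values were seen. Alternatives were the other table, log2 of CPM plus 1, a filter at a mean log2 CPM of 1, median centring, quantile normalisation, no trend, robust priors, voom on recovered reads, the mouse number as block, marker covariates and leave-one-out fits. The fit without saline libraries 1 and 5 was added after seeing the data. Figures were drawn with matplotlib 3.10.9.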

Additional observations from a re-analysis of the deposited data

Results flagged for a closer look

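Each member was checked within the 9 dexamethasone and the 4 saline libraries for a single library far from its neighbours. Among 76 such groups 4 held one, where chance gives about 1 in 20. Lamp1 was highest in dexamethasone library 4, at 9.72 log2 CPM with the nearest dexamethasone library at 9.565. Ctss was lowest in the same library, at 8.298 log2 CPM with the nearest at 8.478. In dexamethasone library 1, Ctsa was highest at 7.935 log2 CPM with the nearest at 7.808, and Mcoln1 was highest at 5.123 with the nearest at 5.006. None of these 4 genes gained or lost its call without the library named.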

How the results depend on the processing

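The 38 members kept their call in the fits with log2 of CPM plus 1, robust priors and voom, and at most 2 gained one with the other deposited table, a filter on low genes, no trend, median centring or quantile normalisation (Ctso, Hexa, Scarb2 or Tfeb). Quantile normalisation raised the log2 fold changes of Ctsb, Ctsd and Lamp1 to 0.45, 0.40 and 0.26. With the macrophage covariate 4 members were higher and 9 lower, Ctsc, Ctsz and Grn turned round to -0.018, -0.27 and -0.29, and 2253 genes of all were higher and 2180 lower. With the fibre covariate 3 members were higher, and 1397 genes of all were higher and 1270 lower. The members' median log2 fold change was 0.00114 with the macrophage covariate, 0.0281 with the fibre covariate and 0.0345 with median centring. Leaving out 1 library gave 11 to 17 members higher and 4 to 5 lower, a median of 0.0472 to 0.128 (without saline libraries 1 and 5 in turn), and 3357 to 3767 genes of all higher and 2949 to 3409 lower. Same-numbered mice showed no clear shared deviation (correlations of -0.07 to 0.12 over 4 pairs, 2 of 4 matching their own number best). A pairing by number was not shown, and so few pairs cannot exclude one. With the replicate block on those 8 libraries 10 members were higher and 3 lower with a median of 0.0907. Of all genes 3054 were higher and 2905 lower in that fit. The members lost were Ctsb, Ctsd, Gm2a, Lamp1, Man2b1, Mitf (0.21, limma adjusted p = 0.143) and Tpp1, and Tfeb was gained. The members' counts and median were the same without the block, with Ctsc lost in place of Tpp1. There 3154 genes of all were higher and 2970 lower. Without saline libraries 1 and 5, 16 members were higher and 4 lower, and 3087 genes of all were higher and 2663 lower. Of 25 named genes outside the members, 7 lost their call with the macrophage covariate, 12 with the fibre covariate and 4 with the block. Each member had at least 255 reads in each library.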
